A study of Rattus norvegicus with 32 samples.

Results

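The genes described are the potassium channel subunits of the adult rat hippocampus, taken as every row of the count tables whose symbol begins with Kcn, other than Kcne2. This rule used the symbols alone and found 91 members among 32883 rows in each of the 2 tables. RNA had been sequenced from the hippocampi of 32 Sprague-Dawley rats killed at P65, 16 males and 16 females. The labels put all males in sequencing batch I and all females in II, so that sex and batch cannot be told apart. In each batch there were 4 diet groups of 4 rats. IS rats were always iron-sufficient and served as controls. FID rats (labelled ID) were formerly iron-deficient, since their dams ate an iron-deficient diet from early gestation through the first postnatal week. ISch and FIDch rats (the latter labelled IDch) were born to dams that ate the same diets with added choline late in gestation. All offspring were on an iron-sufficient diet after weaning, so every group was iron-replete by diet when studied. The diets are described in the study's methods for the males, with a single male taken per litter, and whether the females also came from separate litters is not given in the sources used here.

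Potassium channels set the resting potential of a neuron, end its action potentials and limit how often it fires. Voltage-gated (Kv) channels are assembled from 4 pore-forming subunits, often with cytoplasmic beta subunits or calcium-binding partner proteins, and some "silent" Kv subunits form no channel alone but change the channels they join. Calcium- and sodium-activated channels follow the ions that enter during firing, inward rectifiers hold the membrane near rest and in part answer to G proteins or ATP, and tandem-pore (K2P) channels carry the steady leak. In the hippocampus, dendritic A-type, axonal Kv1, fast Kv3 and muscarine-sensitive Kv7 currents are well described, and astrocytes clear potassium through Kir4.1.

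Levels are given as CPM, the counts of a gene scaled to the counts of its library, after TMM normalization over the 16 libraries of a batch, each batch on its own. Total counts were 3515806 to 9517503 per male library and 18439999 to 26616318 per female library, so low members were measured more precisely in the females. Members made up 0.338% to 0.413% of a male library and 0.341% to 0.424% of a female library. The lowest shares belonged to male IS replicate 1 and to female FIDch replicate 4. Male IS replicate 1 was the lowest of its 4 libraries for 32 of 72 members and female FIDch replicate 4 for 41 of 74. Counts are also given without these libraries. Hippocampal excitatory neuron markers summed to 4430 to 5570 CPM over all libraries and interneuron markers to 669 to 854, as the tissue label would have it. Choroid plexus markers summed to 409 CPM in male FID replicate 4 and to 3.27 to 19.8 in the other male libraries. Kcnj13 (Kir7.1), known from choroid plexus, was 7.19 CPM in that library, 60 counts, and 0 to 0.839 CPM in the rest of its group.

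**Figure D1:**
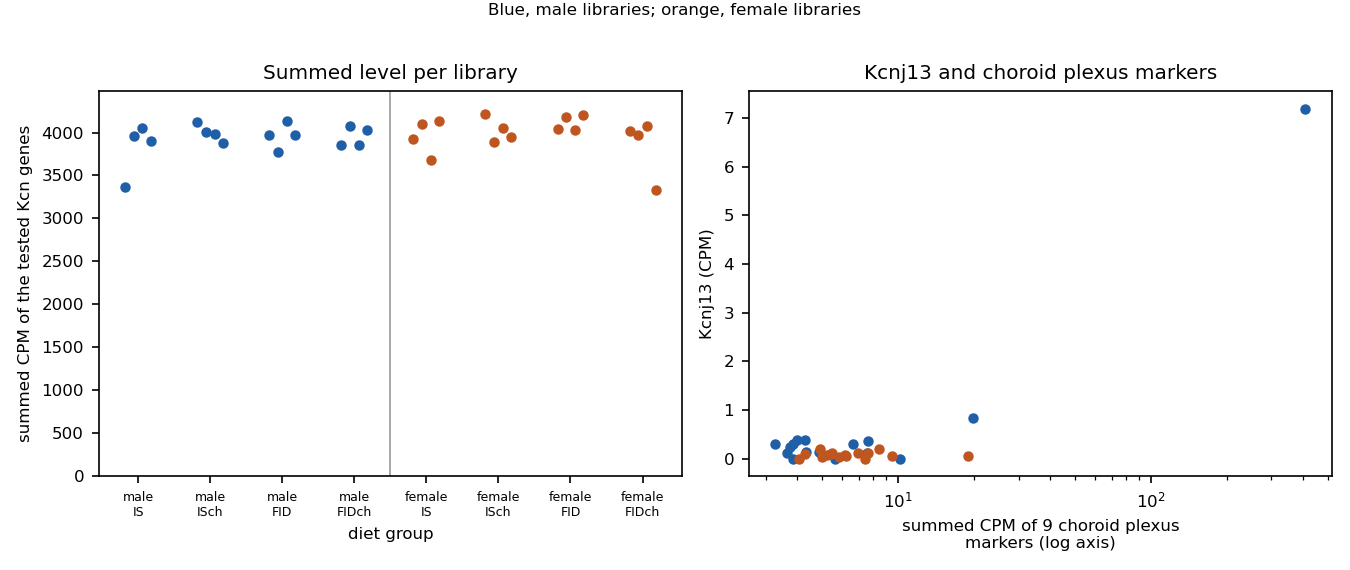
Summed CPM of all 91 Kcn members, tested or not, for each library by diet group (points are libraries, and the CPM axis starts at 0). The axis title names the tested genes, but the sum holds every member. The second panel gives Kcnj13 CPM against the summed CPM of 9 choroid plexus markers on a log axis. Male IS replicate 1 (3368) and female FIDch replicate 4 (3328) lie below every other library in the first panel, and the library at 409 CPM of choroid plexus markers holds 7.19 CPM of Kcnj13.

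Of the 91 members, 70 passed the low-count filter in all 8 pairwise comparisons, 5 in some and 16 in none. Those under the filter throughout were Kcna7, Kcna10, Kcne1, Kcne3, Kcnj1, Kcnj13, Kcnj15, Kcnk6, Kcnk7, Kcnk18, Kcnmb1, Kcnmb3, Kcnn4, Kcnq1, Kcnu1 and Kcnv2. Kcne4, Kcng3 and Kcnk16 passed in the female comparisons alone, Kcnk15 in the male ones alone, and Kcna5 in all but 1. Kcna10 and Kcne1 had 0 counts in every library, which allows up to 3 counts per library at 95% confidence, for counting error only. A member that passed in only some comparisons is counted only there.

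Levels are given for leading genes of the subfamilies and for well-known members. Gene lengths were not at hand, so levels are compared between groups and not between genes. Among the Kv1 genes, which shape firing at the axon, Kcna2 averaged 272 ± 46.8 CPM (SD, n = 4) in male IS rats and 284 ± 37.9 in FID rats, and with choline 309 ± 47.2 (ISch) and 270 ± 40.7 (FIDch). Its female means were 334 ± 29.6, 345 ± 29.3, 323 ± 24.1 and 302 ± 49.4 CPM in the same order. The beta subunit Kcnab2 was 384 to 422 CPM over the male group means and 420 to 474 over the female ones. Neither gene met the criterion in any of the 8 comparisons. Kcna1 ranged over group means of 46.2 to 58.6 CPM in males and 54.7 to 60.0 in females.

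Kcnc1 encodes a Kv3 subunit of fast-spiking cells and had group means of 83.2 to 93.1 CPM in males and 87.5 to 95.2 in females. Kcnd3, of the A-type Kv4 subfamily, spanned 115 to 117 CPM over the male and 101 to 123 over the female group means. Its partner Kcnip4 spanned 56.5 to 65.8 and 66.5 to 69.6 CPM. Kcng1, the silent subunit with the most counts, was between 71.0 and 80.7 CPM in every group of either batch.

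Kcnq3, of the Kv7 subfamily, is a subunit of the M current. Its group means were 62.3 to 83.3 CPM in males and 75.9 to 89.2 in females, with the lowest male mean in IS, the group that holds male IS replicate 1. Kcnh3, an elk-type subunit, was between 83.5 and 98.6 CPM over all group means. The BK pore gene Kcnma1, whose channel opens to calcium and voltage together, had group means of 84.9 to 105 CPM in males and 95.9 to 113 in females. Kcnn2, the SK subunit of the afterhyperpolarization, was 29.7 to 33.4 and 23.4 to 25.3 CPM, and the sodium-activated Kcnt2 59.9 to 75.1 and 45.5 to 52.7 CPM.

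Of the inward rectifiers, the GIRK genes Kcnj3 and Kcnj6 serve G-protein inhibition. Kcnj3 had group means of 73.4 to 86.3 CPM in males and 81.3 to 89.1 in females, and Kcnj6 of 52.2 to 62.8 and 55.9 to 67.4. Kcnj10, the astrocyte channel Kir4.1, was 64.9 to 75.6 and 63.4 to 71.7 CPM. Astrocyte markers summed to 2720 to 3260 CPM in males and 2920 to 3570 in females. None of these 3 inward rectifiers met the criterion in a pairwise comparison. Kcnk1, the K2P gene TWIK-1, was 41.3 to 44.0 and 47.2 to 51.9 CPM, with SDs no larger than 3.18. Kcne5, an accessory subunit, was at 2.03 to 2.79 CPM and Kcnrg, a suppressor of Kv assembly, at 1.02 to 2.1 CPM.

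Most members had like levels in both batches, although the tables were normalized separately. Of 70 members with a mean of at least 2 CPM in either batch, 60 differed by less than 1.5-fold. Kcnk15 was 4.80 to 9.67 CPM in every male library and 0 to 0.435 in every female library. It lies over Rims4 in RefSeq's annotation, and reads of overlapping genes cannot be told apart here. Kcnip2 (KChIP2) was 4.58 to 11.4 CPM in males and 0.556 to 2.48 in females, and Kcnt1 (Slack) 35.7 to 53.8 and 18.6 to 28.2. None of these ranges overlapped between batches. Only Kcnh8 was lower in the male table by as much, at a mean of 2.47 against 3.71 CPM with overlapping ranges.

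Promoters are shown for 4 members whose changes are described below, to place the genes and to show how differently their start regions are built. Each is the 250 bases before the RefSeq start in build GRCr8, 5′ to 3′ on the gene's strand, with the GC box GGGCGG in capitals in either orientation. Kcnab1 lies on chromosome 2, plus strand, chr2:151614301-151614550. Kcnc4 lies on the minus strand at chr2:197788434-197788683, Kcnj9 on the minus strand at chr13:87320294-87320543 and Kcnh7 on the minus strand at chr3:68230672-68230921.
Kcnab1: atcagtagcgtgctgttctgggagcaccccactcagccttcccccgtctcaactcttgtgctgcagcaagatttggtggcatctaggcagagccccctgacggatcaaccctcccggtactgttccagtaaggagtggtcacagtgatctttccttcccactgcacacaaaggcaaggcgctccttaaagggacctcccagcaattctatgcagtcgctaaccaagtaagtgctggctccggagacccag
Kcnc4: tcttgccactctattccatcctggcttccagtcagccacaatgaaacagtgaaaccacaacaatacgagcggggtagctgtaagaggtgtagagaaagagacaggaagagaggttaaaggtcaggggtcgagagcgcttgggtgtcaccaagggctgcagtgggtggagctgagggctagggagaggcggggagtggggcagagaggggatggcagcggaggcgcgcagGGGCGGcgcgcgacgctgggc
Kcnj9: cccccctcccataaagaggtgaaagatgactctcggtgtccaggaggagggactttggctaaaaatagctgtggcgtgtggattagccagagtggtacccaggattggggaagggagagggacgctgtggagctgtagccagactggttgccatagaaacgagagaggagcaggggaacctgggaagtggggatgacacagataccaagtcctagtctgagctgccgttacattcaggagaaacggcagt
Kcnh7: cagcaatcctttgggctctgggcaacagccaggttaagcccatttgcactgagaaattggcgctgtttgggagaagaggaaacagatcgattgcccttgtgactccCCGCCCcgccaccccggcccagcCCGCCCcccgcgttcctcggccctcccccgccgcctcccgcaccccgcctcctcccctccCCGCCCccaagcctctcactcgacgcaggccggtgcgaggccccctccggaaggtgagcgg
The Kcnh7 window held 3 GC boxes and 20 CpG dinucleotides at 69.2% GC, and the Kcnc4 window 1 GC box and 13 CpG. Kcnab1 and Kcnj9 had no GC box, with 7 and 6 CpG. Windows were found for 62 of the 91 members. A GC box stood in 48.4% of them beside 30.5% of all 33469 windows, and the median number of CpG was 11 beside 5. The TATA box TATAAA stood in 2 of the members' 62 windows (3.23%) beside 12.9% of all. The cAMP response element TGACGTCA stood in 0 of them beside 1.59%, and the RE1 half-site TTCAGCACC in 1 (1.61%) beside 0.305%. The members' windows were 1 per gene, a step not applied to the set of all windows. Both strands were searched, none of these motifs contains another, and a match is no more than the letters.

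**Figure D2:**
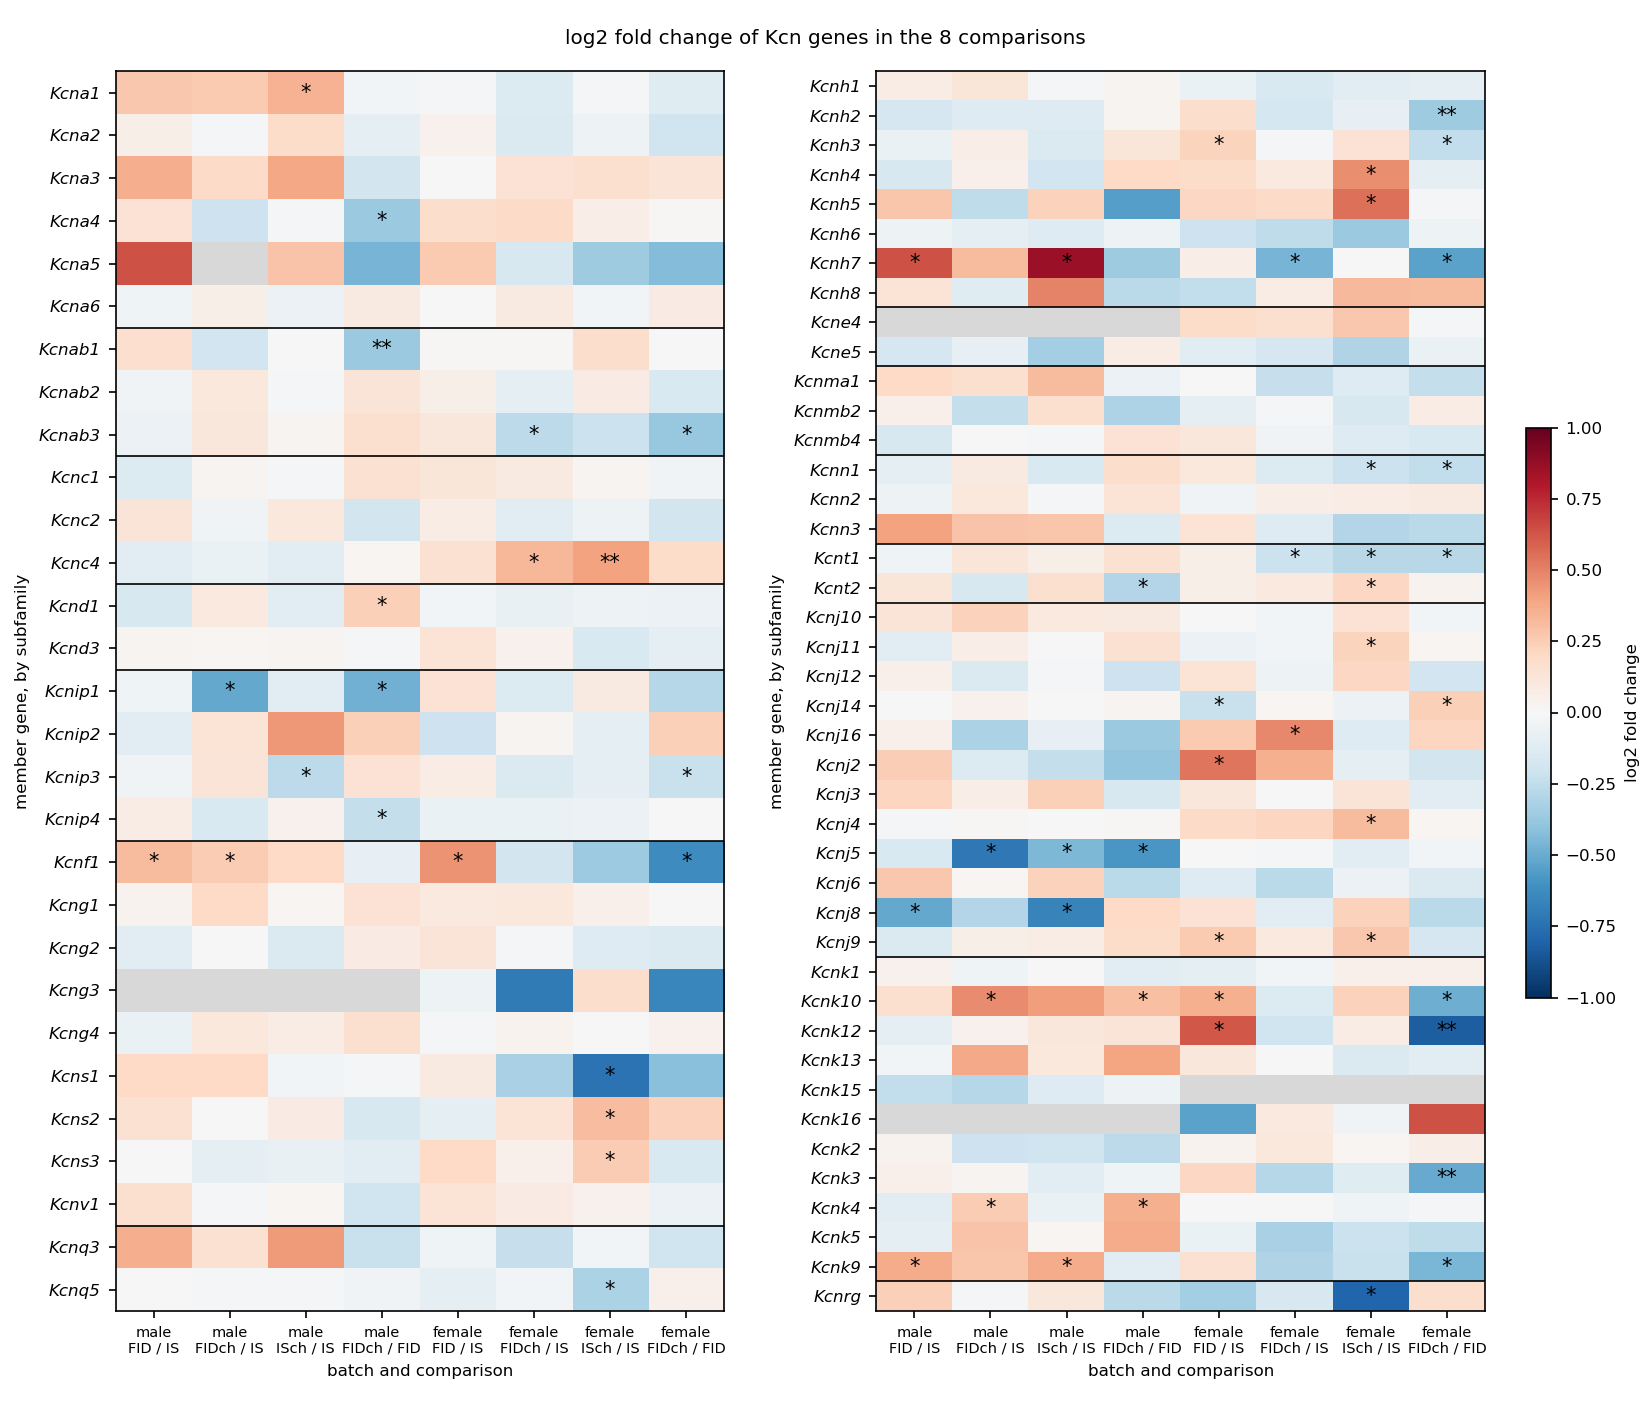
log2 fold change (colour, scale at the right) of the tested Kcn genes in the 8 comparisons, without those not reported here, genes grouped by subfamily and grey where a gene was under the filter. A star marks a gene at the study criterion and a pair of stars an adjusted p under 0.05 as well; the female FIDch / FID column holds 12 lower and 1 higher calls, and Kcnab1 is the one male gene with the pair of stars.

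Pairs of groups were compared in edgeR's quasi-likelihood test. The criterion for a call is that of the study, which asks for a log2 fold change above 0.2 in either direction and an unadjusted p under 0.05. Adjusted p-values (Benjamini-Hochberg) are over all genes tested. Of the 75 members tested in any of the 8 comparisons, 39 met the criterion in at least 1 (52%, beside 38.3% of all genes tested), 20 in at least 2 (26.7%, beside 17.7%) and 8 in at least 3 (10.7%, beside 6.8%). FIDch against FID had the most calls in males and ISch against IS in females. Comparisons within a batch share groups, so their values are set side by side and are not independent. All p-values measure the spread between 4 rats a group.

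Females, FIDch against FID. Choline added to the diet of iron-deficient dams went with lower levels of 13 of 74 members and a higher level of 1 in their offspring. This is 18.9% of members beside 12.7% of all genes tested (5.59% higher and 7.07% lower), and 18 members had an unadjusted p under 0.05 beside 18% of all genes. The median log2 fold change of the members was -0.10 and that of all genes -0.0013. K2P channels (4 lower of 10 tested), eag, erg and elk channels (3 of 8) and single members of other subfamilies made up the calls. Adjusted p-values under 0.05 were reached by 4 members beside 2.28% of all genes, of which 3 are described.

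Kcnk12 (THIK-2), a K2P subunit, was 3.65, 3.12, 3.46 and 3.89 CPM in FIDch and 5.31, 5.91, 6.74 and 7.01 in FID. All FIDch rats lay below all FID rats. Its log2 fold change was -0.83 (SE 0.13, adjusted p = 0.0134), and the adjusted p stayed under 0.05 in all 14 alternatives. Kcnk3 (TASK-1), an acid-sensitive leak channel, was 5.41, 5.22, 5.10 and 5.65 CPM in FIDch against 7.26, 7.26, 7.37 and 8.26 in FID. FID replicate 4 was the highest, and the log2 fold change was -0.50 (SE 0.10, adjusted p = 0.0311). Kcnh2 (ERG1), a subunit that opposes repetitive firing, was 27.4, 29.7, 25.4 and 31.7 CPM in FIDch and 34.8, 36.2, 38.7 and 36.2 in FID. Its log2 fold change was -0.35 (SE 0.073, adjusted p = 0.0333), with no overlap between groups. Kcnk3 and Kcnh2 each lost the adjusted call in 7 of the 8 fits that left out a library, at adjusted p-values of up to 0.0948 and 0.101. In those 7 fits 0.598% to 1.74% of all genes had an adjusted p under 0.05, beside 2.28% with every library. All 3 kept the study's criterion in each of these fits.

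The other lower members included further leak channels, Kcnk9 (TASK-3, log2 fold change -0.46, adjusted p = 0.0708) and Kcnk10 (TREK-2, -0.49, adjusted p = 0.0888). Among the eag, erg and elk genes were Kcnh7 (ERG3, -0.53, adjusted p = 0.0883) and Kcnh3 (-0.24, adjusted p = 0.158). In RefSeq's annotation Kcnh7 lies over Gca and Kcnh3 over Mcrs1, and reads of overlapping genes cannot be told apart here. The silent subunit Kcnf1 (Kv5.1) had a log2 fold change of -0.63 (adjusted p = 0.0684), the beta subunit Kcnab3 -0.38 (adjusted p = 0.0974) and the sodium-activated Kcnt1 -0.28 (adjusted p = 0.0919). Kcnn1 (SK1, -0.25, adjusted p = 0.211) and Kcnip3 (KChIP3, also known as the transcriptional repressor DREAM, -0.22, adjusted p = 0.242) each lost the call in 4 of 8 fits without a library. Kcnj14 (Kir2.4) was the single higher member, at 0.24 (adjusted p = 0.193), and lost the call without FID replicate 1, FID replicate 2 or FIDch replicate 1. Kcnf1 and Kcnk9 lost the call when the 4 diet groups were fitted together. Without FIDch replicate 4, the library low in many members, 20 members met the criterion, 5 higher and 15 lower, with 11 adjusted p-values under 0.05. Of all genes, 13.3% were called in that fit and 5.21% by the adjusted p.

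Cell type markers moved in this comparison too. Of 47 markers tested over all lists, 3 were higher and 6 lower at the criterion, 19.1% beside the 12.7% of all genes. Prox1, a marker of dentate granule cells, was 141 to 161 CPM in FIDch and 115 to 120 in FID, at 0.39 (adjusted p = 0.00559). The astrocyte genes Aqp4 (0.30, adjusted p = 0.0239) and Aldh1l1 (0.36, adjusted p = 0.0346) were higher. The microglia gene Cx3cr1 (-0.32, adjusted p = 0.0926) and the interneuron gene Lhx6 (-0.60, adjusted p = 0.109) were lower. All 5 microglia markers summed to 174 to 186 CPM in FIDch and 194 to 215 in FID, without overlap, and the 6 excitatory neuron markers to 4590 to 4930 and 4790 to 5190. Lhx6 was the 1 interneuron marker called of 6 tested, and these 6 summed to 745 to 854 CPM in FIDch and 720 to 792 in FID. Astrocyte markers summed to 3100 to 3230 CPM in FIDch and 2920 to 3160 in FID. The part of these cell types in the members' values was not tested.

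**Figure D3:**
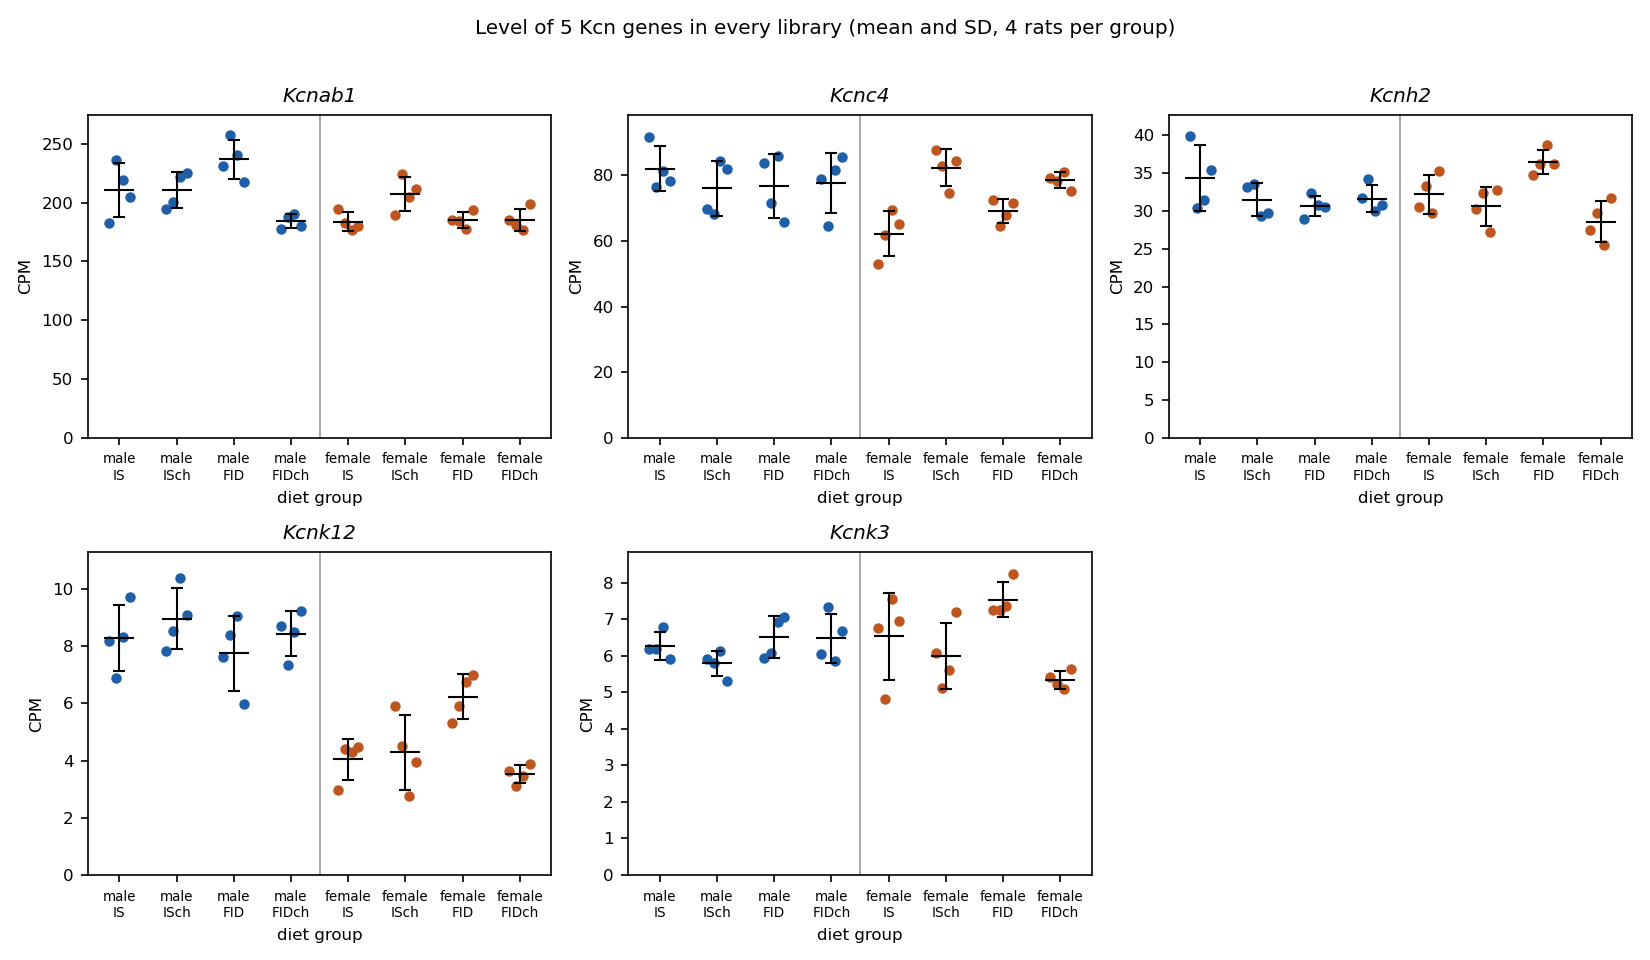
CPM (axes from 0) of 5 of the 6 Kcn genes with an adjusted p under 0.05 in a pairwise comparison, for each library by batch and diet group; points are rats, black bars the mean and SD of 4. Kcnab1 is low in male FIDch (178 to 191 CPM) beside male FID (218 to 258), while Kcnh2, Kcnk12 and Kcnk3 are low in female FIDch beside female FID, and Kcnc4 is low in female IS.

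Females, FID against IS. Former iron deficiency without choline went with 6 members higher and 1 lower at the criterion, 9.46% of 74 beside 6.47% of all genes (3.08% higher and 3.4% lower). Members stood above 0 in 50 of 74 cases with a median log2 fold change of 0.063, beside 50.1% of all genes above 0. No member had an adjusted p under 0.05 in edgeR's quasi-likelihood test of this pair, where 0.191% of all genes did. In edgeR's likelihood ratio test 3 members did, beside 1.1% of all genes. With no low-count filter 1 did, beside 0.36%. In DESeq2 4 members did, beside 0.902% of all genes. In edgeR 13 members had an unadjusted p under 0.05 beside 11.2% of all genes. Inward rectifiers (2 higher, 1 lower of 12) and K2P channels (2 higher of 10) held most calls.

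Kcnj9 (GIRK3), a G-protein-gated subunit, was 73.8, 73.3, 76.0 and 84.8 CPM in FID and 62.9, 66.4, 65.2 and 62.7 in IS. Every FID rat exceeded every IS rat, at a log2 fold change of 0.26 (SE 0.052, adjusted p = 0.0697). Kcnj9 lies over Igsf8 in RefSeq's annotation, and reads of overlapping genes cannot be told apart here. Kcnj2 (Kir2.1), a classical strong inward rectifier, was 5.76, 6.90, 6.84 and 7.97 CPM in FID and 5.10, 4.71, 4.31 and 4.83 in IS. It differed by 0.54 (SE 0.12, adjusted p = 0.106), without overlap. Kcnk12 was 2.98, 4.40, 4.31 and 4.49 CPM in IS, with the lowest value in replicate 1, beside 5.31 to 7.01 in the same FID rats as above. Its log2 fold change was 0.62 (SE 0.15, adjusted p = 0.127). These 3 calls held in every alternative. Kcnh3 (0.22, adjusted p = 0.160), Kcnk10 (0.35, adjusted p = 0.340) and Kcnf1 (0.45, adjusted p = 0.411) were also higher and Kcnj14 lower (-0.22, adjusted p = 0.417). Each of these 4 lost the call in 2 to 4 of the 8 fits without a library. Kcnk12, Kcnh3, Kcnk10 and Kcnf1 were thus higher in FID than in IS and lower in FIDch than in FID, both comparisons using the same FID libraries.

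Females, ISch against IS. Choline added to the diet of iron-sufficient dams went with 9 members higher and 6 lower in their offspring. This is 20.3% of 74 beside 10.3% of all genes tested (5.14% higher and 5.15% lower). An unadjusted p under 0.05 was found for 18 members beside 16.3% of all genes, and an adjusted one for 1 beside 2.54%. The members' median was -0.026, beside -0.0037 for all genes. Inward rectifiers (3 higher of 12), silent Kv subunits (2 higher, 1 lower of 9) and eag and elk channels (2 higher of 8) were among the calls, and the Kv7 member Kcnq5 was lower.

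Kcnc4 (Kv3.4), a quickly inactivating Kv3 subunit, was 87.6, 82.7, 74.5 and 84.3 CPM in ISch and 52.9, 61.8, 69.2 and 65.0 in IS. The groups did not overlap and the log2 fold change was 0.40 (SE 0.080, adjusted p = 0.0267). The adjusted p was above 0.05 in 4 of the 8 fits without a library, at 0.0807 and 0.061 when IS replicate 2 or 4 was left out and at 0.0697 and 0.0737 when ISch replicate 2 or 4 was, and was 0.125 with a replicate block. Kcnj9 was 77.9, 75.1, 70.5 and 87.9 CPM in ISch, all above the 62.7 to 66.4 of IS. Its log2 fold change was 0.27 (SE 0.064, adjusted p = 0.0513). Kcnj4 (Kir2.3) was 77.7, 69.6, 61.5 and 76.9 CPM in ISch and 49.7, 58.5, 61.3 and 59.2 in IS. The closest rats were 61.5 and 61.3 CPM, and the log2 fold change was 0.32 (SE 0.085, adjusted p = 0.0824).

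Higher at the criterion were also Kcns2 (0.31, adjusted p = 0.176) and Kcns3 (0.26, adjusted p = 0.186), silent Kv9 subunits. So were Kcnh4 (0.46, adjusted p = 0.176), Kcnh5 (Eag2, 0.55, adjusted p = 0.222), the sodium-activated Kcnt2 (0.21, adjusted p = 0.197) and Kcnj11 (Kir6.2, the pore of neuronal ATP-sensitive channels, 0.22, adjusted p = 0.263). Among the lower were Kcns1 (-0.74, adjusted p = 0.145), Kcnn1 (-0.21, adjusted p = 0.198), Kcnt1 (-0.28, adjusted p = 0.214), Kcnq5 (-0.32, adjusted p = 0.248) and Kcnrg (-0.79, adjusted p = 0.269). The 2 sodium-activated genes thus stood on opposite sides. Kcns1, Kcns2 and Kcnh4 kept the call whichever library was left out, Kcnj11 in 2 of 8 fits and Kcnrg in 1. Without ISch replicate 1 the count rose from 15 to 21 members, 10 higher and 11 lower, and the share of all genes from 10.3% to 14%. Without IS replicate 2 or 3, or ISch replicate 2 or 4, 10 members met the criterion, beside 8.74% to 9.81% of all genes.

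Among 47 cell type markers, 2 were higher and 2 lower in female ISch against IS, 8.51% beside 10.3% of all genes. Prox1 was 147 to 183 CPM in ISch and 112 to 135 in IS (0.39, adjusted p = 0.0227), and the astrocyte gene Aldh1l1 25.9 to 30.2 and 20.7 to 23.3 (0.36, adjusted p = 0.0215). The microglia genes P2ry12 (-0.41, adjusted p = 0.0940) and Cx3cr1 (-0.23, adjusted p = 0.121) were lower, and microglia markers summed to 168 to 196 CPM in ISch and 200 to 211 in IS. Their part in the members' values was not tested.

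Females, FIDch against IS. Here 2 members were higher and 5 lower, 9.46% of 74 beside 8.98% of all genes (4.16% higher and 4.82% lower), a share near the background. No member had an adjusted p under 0.05 in edgeR's quasi-likelihood test of this pair, where 0.907% of all genes did. In edgeR's likelihood ratio test 1 member did, beside 2.27% of all genes. With the 4 diet groups in one fit 2 did, beside 1.62%. In DESeq2 1 member did, beside 1.83% of all genes. In edgeR 7 members had an unadjusted p under 0.05 beside 12.9% of all genes. Kcnc4 was 79.2, 78.3, 81.1 and 75.2 CPM in FIDch, all above IS, at a log2 fold change of 0.33 (SE 0.075, adjusted p = 0.0815). Its level was thus high beside IS in both choline groups, which share the IS rats. Kcnh7 was 19.4, 17.7, 13.4 and 12.5 CPM in FIDch and 23.4, 21.3, 16.8 and 25.8 in IS, at -0.47 (SE 0.16, adjusted p = 0.252). Kcnj16 (Kir5.1), the astrocyte partner of Kir4.1, was higher (0.48, adjusted p = 0.330), and astrocyte markers summed to 3100 to 3230 CPM in FIDch and 3130 to 3260 in IS. Of those 5 markers, Gja1 was lower (-0.23, adjusted p = 0.0563) and Aldh1l1 higher (0.28, adjusted p = 0.130). Prox1 was also higher (0.30, adjusted p = 0.0696) and Cx3cr1 lower (-0.28, adjusted p = 0.190). Prox1 was the 1 call among 5 excitatory neuron markers tested, whose median log2 fold change was -0.12. The 6 markers of that list summed to 4590 to 4930 CPM in FIDch and 4630 to 5570 in IS. The part of these cell types in the members' values was not tested. Kcnab3 (-0.26, adjusted p = 0.281) and Kcnt1 (-0.21, adjusted p = 0.361) were lower. Kcnj16 and Kcnt1 each kept the call in 3 of 8 fits without a library. Without FIDch replicate 4, 10 members met the criterion, 3 higher and 7 lower, and 2 had an adjusted p under 0.05, beside 10% and 2.15% of all genes. Without FIDch replicate 2, 3 members met it beside 8.66% of all genes, and without IS replicate 4, 4 members beside 7.5%.

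Males, FIDch against FID. In this comparison 5 members were higher and 6 lower, 15.3% of 72 beside 13% of all genes (5.74% higher and 7.24% lower). An unadjusted p under 0.05 was found for 13 members beside 17.8% of all genes, and an adjusted one for 1 beside 1.28%. Calls lay on both sides, with a median of -0.026 and 33 of 72 members above 0. Of the 4 Kv4 partner proteins tested 2 were lower, and of the 10 K2P genes 2 were higher.

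Kcnab1 (Kv beta 1), which gives Kv1 channels fast inactivation, was 178, 188, 191 and 180 CPM in FIDch and 231, 258, 241 and 218 in FID. All FIDch rats were below all FID rats, at a log2 fold change of -0.37 (SE 0.060, adjusted p = 0.0154). It was the only male member with an adjusted p under 0.05 in a pairwise comparison, and this was lost without FIDch replicate 1 (0.0895), without FIDch replicate 4 (0.0927) or with a replicate block (0.0981). Kcnt2 was 57.7, 59.0, 60.5 and 62.5 CPM in FIDch and 69.4, 66.2, 71.3 and 84.8 in FID, where replicate 4 was highest. The groups did not overlap, at -0.29 (SE 0.081, adjusted p = 0.0973). Kcna4 (Kv1.4), the A-type Kv1 subunit, was 21.7, 22.9, 27.1 and 26.2 CPM in FIDch and 25.4, 34.8, 31.0 and 34.6 in FID, with FID replicate 1 inside the FIDch range. Its log2 fold change was -0.37 (SE 0.11, adjusted p = 0.122). These 3 members kept the criterion in every alternative.

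Lower too were the Kv4 partners Kcnip1 (-0.48, adjusted p = 0.140) and Kcnip4 (-0.24, adjusted p = 0.162) and the GIRK4 gene Kcnj5 (-0.58, adjusted p = 0.244). Among the higher were Kcnd1 (Kv4.1, 0.24, adjusted p = 0.204) and the K2P genes Kcnk4 (TRAAK, 0.35, adjusted p = 0.211) and Kcnk10 (0.30, adjusted p = 0.269). Kcnip1 kept the call whichever library was left out, and Kcnj5 and Kcnk10 in 2 of 8 fits. Kcnip4 shares its locus with several pseudogenes and Kcnip1 with Kcnmb1 in RefSeq's annotation. Without FID replicate 4, the library with choroid plexus markers, 8 members met the criterion, 2 higher and 6 lower, beside 11.4% of all genes, and Kcnab1 still had an adjusted p under 0.05. Of 44 cell type markers 4 were higher and 5 lower in this comparison, 20.5% beside 13% of all genes, none with an adjusted p under 0.05. Pdgfrb of pericytes (0.34, adjusted p = 0.0933) and Mbp of oligodendrocytes (0.29, adjusted p = 0.0712) were higher and the choroid plexus gene Ttr lower (-6.25, adjusted p = 0.0912). Their part in the members' values was not tested.

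Males, ISch against IS. At the criterion, 4 members were higher and 3 lower, 9.72% of 72 beside 8.06% of all genes (4.52% higher and 3.54% lower). No member had an adjusted p under 0.05 in edgeR (0.208% of all genes did) or in DESeq2 (0.305% of all genes did). In edgeR 8 members had an unadjusted p under 0.05 beside 10.5% of all genes. Kcnh7 was 29.7, 26.2, 19.4 and 17.6 CPM in ISch and 7.44, 12.1, 19.2 and 12.8 in IS. IS replicate 1 was lowest, the groups overlapped, and the log2 fold change was 0.86 (SE 0.24, adjusted p = 0.300). Kcnj8 (Kir6.1), the ATP-sensitive channel pore of pericytes and smooth muscle, was 3.14, 3.08, 3.63 and 2.82 CPM in ISch and 5.83, 5.32, 5.29 and 3.54 in IS. It differed by -0.67 (SE 0.20, adjusted p = 0.334), and pericyte markers summed to 75.6 to 90.6 CPM in ISch and 76.3 to 97.7 in IS. The endothelial marker Cldn5 was 38.6 to 45.9 CPM in ISch and 47.2 to 64.5 in IS (-0.31, adjusted p = 0.376), without overlap, and endothelial markers summed to 139 to 161 and 156 to 179.

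Kcnk9 (0.37, adjusted p = 0.465) and Kcna1 (0.35, adjusted p = 0.472) were higher, and Kcnip3 (-0.26, adjusted p = 0.457) and Kcnj5 (-0.45, adjusted p = 0.464) lower. Each of these kept the call in 2 to 4 of 8 fits without a library. Without IS replicate 1, which is low in many members, 4 members met the criterion, 1 higher and 3 lower, beside 5.83% of all genes. The count was also 4 without IS replicate 2 or ISch replicate 3 (7.86% and 8.2% of all genes), 3 without ISch replicate 2 (6.16%) and 13 without IS replicate 3 (12.9%). ISch replicates 1 and 2 have labels of another form, and without both of them 2 members met the criterion, both lower, beside 4.81% of all genes. Male FIDch replicate 2 has a label of that form too, and its total of 3515806 counts is the lowest of all libraries. Without it 13 members met the criterion in male FIDch against FID, beside 14% of all genes. In male FIDch against IS 5 did, beside 5.92%.

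Males, FID against IS and FIDch against IS. In FID against IS, 3 members were higher and 1 lower, 5.56% of 72 beside 4.62% of all genes (2.34% higher and 2.28% lower). Adjusted p-values were at least 0.786 in edgeR's quasi-likelihood test of this pair, with 0% of all genes under 0.05. In DESeq2 0 members were under it, beside 0.0094% of all genes. In edgeR 4 members had an unadjusted p under 0.05 beside 5.68% of all genes. Kcnh7 was 18.8, 16.8, 24.7 and 19.5 CPM in FID beside the IS values above, at 0.64 (SE 0.22, adjusted p = 0.786). Kcnf1 was 33.1, 42.0, 31.8 and 31.6 CPM in FID and 27.5, 29.5, 24.0 and 30.0 in IS, without overlap, at 0.32 (SE 0.11, adjusted p = 0.786). It lost the call without FID replicate 2, its highest rat. Kcnk9 was 19.2, 17.5, 21.6 and 18.8 CPM in FID and 10.7, 16.0, 18.8 and 14.3 in IS, at 0.37 (SE 0.15, adjusted p = 0.786), and lost the call without IS replicate 1, IS replicate 4 or FID replicate 3. Kcnj8 was lower (-0.51, adjusted p = 0.786), in 3 of 8 fits without a library. The endothelial marker Cldn5 was lower in this comparison too (-0.29, adjusted p = 0.786). Endothelial markers summed to 140 to 164 CPM in FID and 156 to 179 in IS, with overlap. Pericyte markers had a median sum of 88.1 CPM in FID and 83.4 in IS, and a median log2 fold change of 0.046. The part of these cell types in the Kcnj8 value was not tested. Without IS replicate 1, 2 members met the criterion beside 2.82% of all genes.

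In FIDch against IS, 3 members were higher and 2 lower, 7.04% of 71 beside 6.12% of all genes (2.91% higher and 3.21% lower). No member had an adjusted p under 0.05 in edgeR (0.131% of all genes did) or in DESeq2 (0.228% of all genes did). In edgeR 7 members had an unadjusted p under 0.05 beside 7.89% of all genes. Kcnj5 was 2.77, 1.69, 2.1 and 1.49 CPM in FIDch and 3.10, 3.02, 3.63 and 3.98 in IS, without overlap, at -0.72 (SE 0.24, adjusted p = 0.463). Kcnip1 was 12.5, 14.1, 15 and 12.6 CPM in FIDch and 25.3, 20.7, 12.7 and 18.1 in IS, where replicate 3 lay among the FIDch rats. It differed by -0.51 (SE 0.18, adjusted p = 0.472). Kcnk10 was 8.32, 8.46, 8.06 and 7.73 CPM in FIDch and 4.09, 5.61, 8.16 and 5.75 in IS, at 0.47 (SE 0.19, adjusted p = 0.570), and kept the call in 3 of 8 fits without a library. Kcnk4 (0.26, adjusted p = 0.580) and Kcnf1 (0.25, adjusted p = 0.587) were higher. Kcnj5 was lower at the criterion in 3 of the 4 male comparisons, each beside an IS or FID group it shares with another. Without IS replicate 1, 8 members met the criterion, 3 higher and 5 lower, beside 6.79% of all genes, and without FIDch replicate 1, 3 did beside 5.18%.

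**Figure D4:**
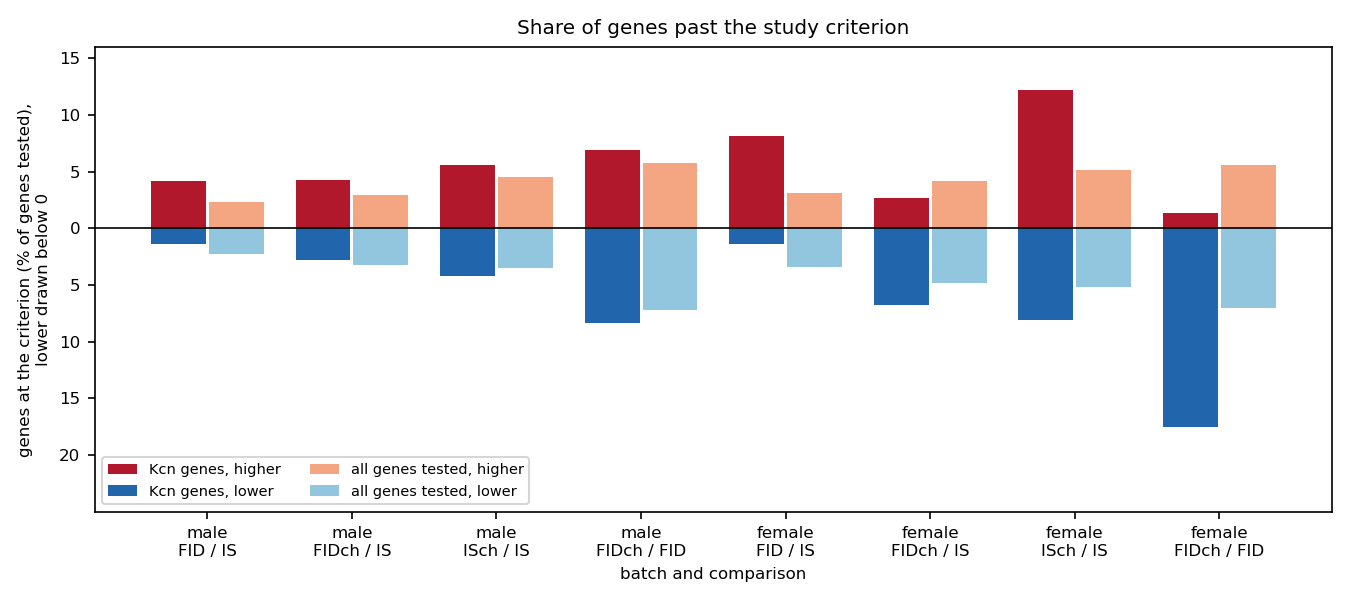
Percent of tested genes at the study criterion in each comparison, higher drawn above 0 and lower below it, for Kcn genes (dark) and all genes tested (light). The dark and light bars are close in the 4 male comparisons, and the largest gap is among the lower genes of female FIDch / FID.

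Over the 4 diet groups together, 14 of 74 male members had an unadjusted p under 0.05, beside 14.3% of all genes, and no adjusted p under 0.05 (0.748% of all genes had one). In females 21 of 74 did, beside 22.5% of all genes, and 5 had an adjusted p under 0.05, beside 5.34% of all genes. Among these were Kcnc4 (adjusted p = 0.00781), Kcnh2 (0.0389), Kcnk12 (0.0432) and Kcnj9 (0.0459). Without male IS replicate 1, 13 male members had an unadjusted p under 0.05 (14.7% of all genes) and 1, Kcnab1, an adjusted one (adjusted p = 0.0290). Without female FIDch replicate 4, 28 female members did (25.1% of all genes) and 9 had an adjusted p under 0.05 (8% of all genes).

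Whether choline acted differently by iron history, taken as FIDch minus FID less the value of ISch minus IS, was tested in a fit of the 16 libraries of a batch. In females, 16 of 74 members had an unadjusted p under 0.05, beside 9.18% of all genes, and 14 of these 16 were negative. In males 16 of 74 did, beside 15.4%. No member had an adjusted p under 0.05 in either batch in edgeR's quasi-likelihood test. In that test 1 gene of all tested did in each batch (0.00699% in males and 0.00668% in females). In DESeq2 1 male and 2 female members did, beside 0.635% and 0.27% of all genes. Among the female differences with the smallest p were Kcnj9 (-0.44, SE 0.098, adjusted p = 0.178) and Kcnk12 (-0.90, SE 0.27, adjusted p = 0.349). In males the smallest p-values belonged to Kcnab1 (-0.36, SE 0.10, adjusted p = 0.170), Kcnh7 (-1.20, SE 0.36, adjusted p = 0.179) and Kcnt2 (-0.45, SE 0.13, adjusted p = 0.179). The GIRK1 gene Kcnj3 had a negative difference in both batches, -0.39 in males (adjusted p = 0.233) and -0.24 in females (adjusted p = 0.420). Without male IS replicate 1, 15 male members had an unadjusted p under 0.05 beside 12.2% of all genes, and the values of Kcnt2 (-0.35, adjusted p = 0.249) and Kcnab1 (-0.30, adjusted p = 0.242) were nearer 0. Without female FIDch replicate 4, 17 female members did beside 11.1% of all genes, 14 of them negative, and Kcnj9 had an adjusted p under 0.05 (-0.50, adjusted p = 0.0347).

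**Figure D5:**
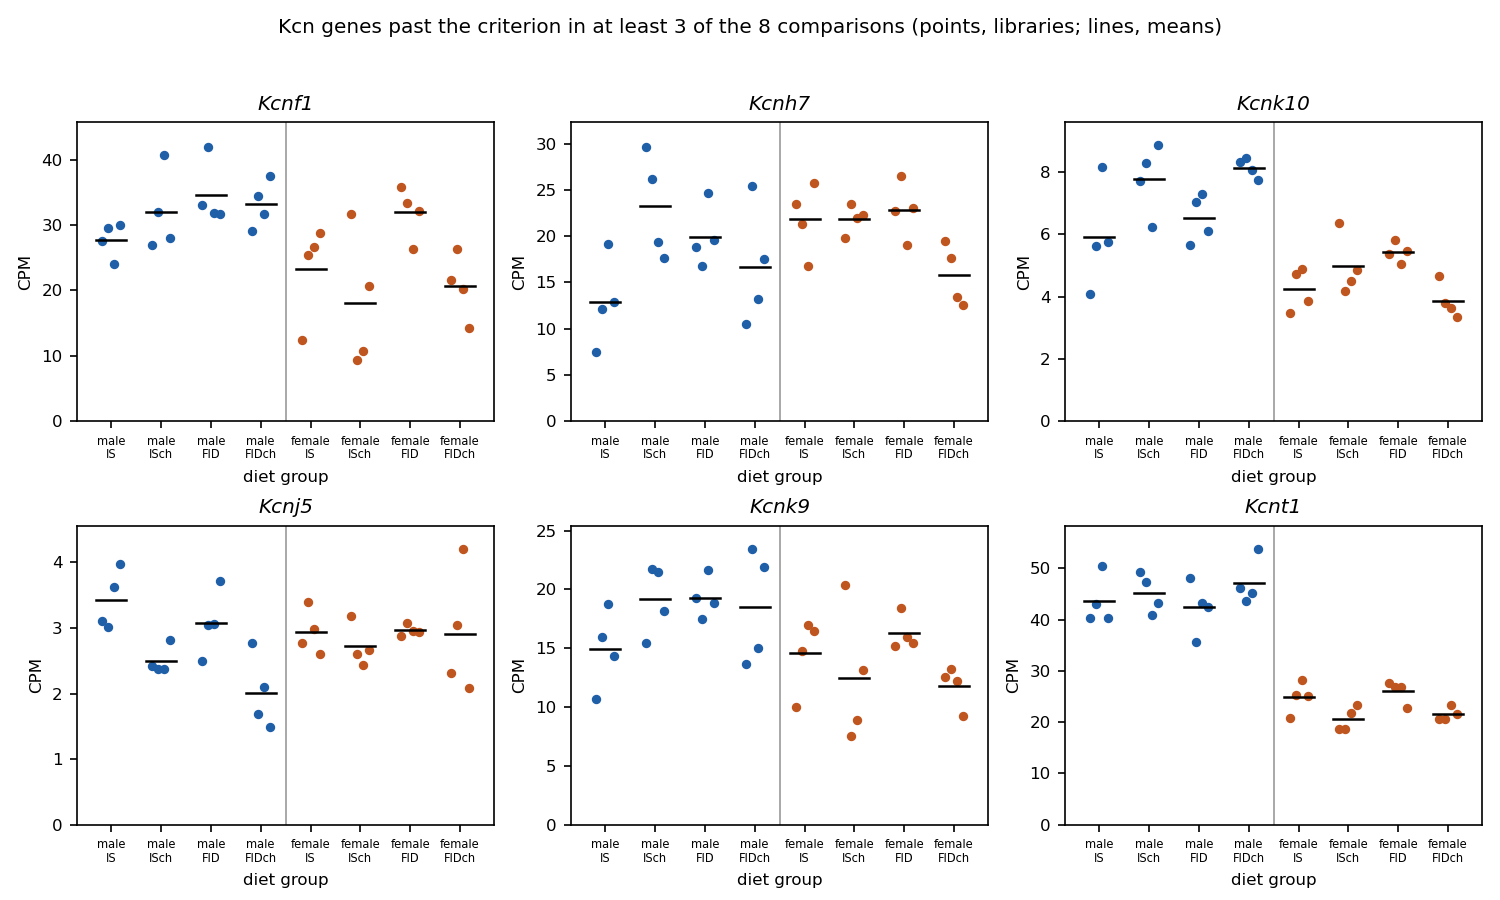
CPM (axes from 0) of 6 of the 8 Kcn genes that met the criterion in at least 3 of the 8 comparisons, for each library by batch and diet group; points are rats and lines group means. Over all female libraries Kcnt1 runs from 18.6 to 28.2 CPM and Kcnf1 from 9.41 to 35.8.

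Males and females were set against each other by testing the difference between their diet effects, which batch I and batch II carry as well. No member's difference had an adjusted p under 0.05 in edgeR's quasi-likelihood test (0.0396%, 0.362% and 1.28% of all genes did). In its likelihood ratio test 0, 0 and 1 members did, beside 0.198%, 1.77% and 2.84% of all genes. For FID against IS, 7 members had an unadjusted p under 0.05 beside 8.34% of all genes, for FIDch against IS 12 beside 13.9%, and for ISch against IS 13 beside 15.5%. Kcnc4 came nearest, in ISch against IS, at a difference of -0.51 (male minus female, SE 0.12, adjusted p = 0.0516). Kcnh7 was among these in all 3, at 0.59 (adjusted p = 0.592), 0.77 (adjusted p = 0.335) and 0.87 (adjusted p = 0.145), and was called higher in male ISch and FID and lower in female FIDch. Without male IS replicate 1 the counts were 6, 8 and 10 members, beside 6.68%, 12% and 14.2% of all genes, and without female FIDch replicate 4, 11 members differed in FIDch against IS beside 14%. In the fits without male IS replicate 1 Kcnc4 differed by -0.45 (adjusted p = 0.0847) and Kcnh7 by 0.37, 0.57 and 0.66, with adjusted p-values of at least 0.239 and an unadjusted p under 0.05 in the last alone. In the fit of all libraries Kcnj9 differed by -0.39 in FID against IS (adjusted p = 0.324).

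Channel genes and partners outside the Kcn symbols were followed as a list of 20, namely HCN channels and their partner Pex5l, the Kv4 partners Dpp6 and Dpp10, the Kv2 partner Amigo1, BK gamma subunits, sulfonylurea receptors and Kv1 complex proteins, of which 16 passed the filter. In female FIDch against FID, 4 were lower and 1 higher, with a median log2 fold change of -0.17 beside -0.0013 for all genes. Among the lower were Pex5l, which traffics HCN channels (-0.41, adjusted p = 0.0699), Hcn4 (-0.39, adjusted p = 0.204) and the sulfonylurea receptor Abcc9 (-0.23, adjusted p = 0.149). Higher was the BK gamma subunit Lrrc55 (0.41, adjusted p = 0.0874). In female FIDch against IS, Pex5l and Adam22 were among the lower and Lrrc55 higher, and in ISch against IS Lrrc55 alone was higher. Female FID against IS had Hcn3 and Hcn4 higher. Male ISch against IS had Pex5l (0.44) and Cntn2 (0.21) among the higher, FIDch against IS Cntn2 and FID against IS Dpp10. Dpp10 was lower in male FIDch against FID (-0.42, adjusted p = 0.0866). No gene of the list had an adjusted p under 0.05 in a pairwise comparison.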

How the data were processed

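Hippocampal total RNA was isolated with the RNAqueous kit, and TruSeq RNA v2 libraries, which do not mark strand, were sequenced as 50-bp paired ends. The submitters' processing notes name FastQC, Trimmomatic, HISAT2, featureCounts (Subread) and the build Rnor_6.0. The authors deposited whole-number counts per gene, one table a batch, without normalization or filtering. The annotation version, the strand setting and the treatment of multiply mapped reads are not given in the sources used here, so members that overlap another gene are uncertain: RefSeq (GRCr8, used for names and promoter sequences) places 43 of the 91 members over another gene, 18 of the 39 called ones included.

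Groups came from the diet and sex labels, and replicates are separate rats. Pairs of groups were fitted apart, as in the study, with edgeR 4.0.16 in R 4.3.3 (TMM factors, genes kept by filterByExpr, quasi-likelihood F test), and p-values were adjusted by Benjamini-Hochberg over all genes. The SE is the absolute log2 fold change divided by the square root of F. The 4 diet groups, the iron by choline difference and the difference between batches were tested in joint fits. The scripts were tested on simulated data first. Replicates were compared by chi-square in 48 pairs, over genes with 20 or more counts, and gave 2.02 to 25.2 per gene, so no library was a copy of another. The median total was 8007907 counts in males and 21747536.5 in females.

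Some genes are not reported here by name and stay in the counts. Every other member at the criterion is named, and the 3 with the smallest p in a comparison, with any at an adjusted p under 0.05, are given by library. Levels are given for the most abundant member of each subfamily and a short set of well-known genes. The members, the list of partners outside Kcn, the marker lists of 11 cell types and tissues and the tests were chosen with earlier results of these data known. Alternatives were DESeq2 1.42.0, the likelihood ratio test, RLE size factors, no low-count filter, the 4 diet groups in one fit, a replicate block, each library left out, and male ISch replicates 1 and 2 left out together.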

Additional observations from a re-analysis of the deposited data

Results flagged for a closer look

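Dixon's test at 95% was run on 46 groups of 4 rats, for the members chosen by the naming rule and for Kcnj13 in male FID alone. That male group holds the library with choroid plexus markers, so its Kcnj13 value cannot be set against chance. In all, 4 groups held a value that stood apart, that of Kcnj13 included, where chance alone gives about 1 in 20. Kcnk12 was 2.98 CPM in female IS replicate 1 and 4.31 to 4.49 in the other 3 rats. Kcnk3 was 8.26 CPM in female FID replicate 4 and 7.26 to 7.37 in the others. Kcnf1 was 42.0 CPM in male FID replicate 2 and 31.6 to 33.1 in the others. Kcnj13 was 7.19 CPM in male FID replicate 4 and 0 to 0.839 in the others, and this is the library in which choroid plexus markers summed to 409 CPM. Its part in other members' values there was not tested.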

How the results depend on the processing

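Over 70 pairs of a member and a comparison at the criterion, all 70 kept their sign in every alternative, 31 kept the call whichever library was left out and 28 kept it in every alternative. In male FID against IS the count of 4 members became 7 with no low-count filter, 8 with the replicate block and 2 to 6 when a library was left out, while the share of all genes went from 4.62% to 4.81%, 5.74% and 2.82% to 8.79%. In male FIDch against IS 5 became 3 in DESeq2, 3 with the 4 diet groups in one fit and 3 to 8 without a library (all genes 6.12%, then 3.27%, 7.06% and 4.92% to 9.16%). In male ISch against IS 7 became 2 without ISch replicates 1 and 2 together and 3 to 13 without a library (all genes 8.06%, then 4.81% and 5.79% to 12.9%). In male FIDch against FID 11 became 7 in DESeq2, where all genes went from 13% to 6.67%. Leaving out a library gave 6 to 17 for the male test of the 4 groups (14, with all genes at 10.4% to 18.1%). It gave 5 to 12 for female FID against IS (7, with all genes at 5.82% to 6.99%). For female FIDch against IS it gave 3 to 10 (7, with all genes at 7.5% to 10.3%). For the female iron by choline difference it gave 9 to 17 (16, with all genes at 7.31% to 11.1%). DESeq2 gave 5 members in female FID against IS, beside 4.21% of all genes. The difference between batches without male IS replicate 1 or female FIDch replicate 4 was an alternative chosen after seeing the data, and its counts stayed within 1.5 times. Replicate numbers do not pair the rats: same-numbered rats' deviations had a median correlation of -0.0102 in males (3 of 24 pairs over 0.1) and -0.0109 in females (1 of 24). The replicate block left 1 adjusted call in female FIDch against FID, beside 1.34% of all genes. It left 0 in female ISch against IS and in male FIDch against FID, beside 0.56% and 0.0287% of all genes. The cause of these changes was not tested, and the lower male totals limit members below about 1 CPM.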

Other observations

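Marker lists were also counted together in the comparisons not given so above. In female FID against IS 1 of 47 was higher and 0 lower (2.13%, beside 6.47% of all genes), the striatum gene Drd1 (0.67, adjusted p = 0.0970). In male FIDch against IS 1 of 44 was higher (2.27%, beside 6.12%), and in male FID against IS 1 was higher and 4 lower (11.4%, beside 4.62%), the higher one being the choroid plexus gene Ttr. In female FIDch against IS 2 of 47 were higher and 4 lower (12.8%, beside 8.98%), and in male ISch against IS 2 of 44 were lower (4.55%, beside 8.06%). All excitatory neuron calls in the 8 comparisons were of Prox1, in the 3 female comparisons with a choline group. Markers with an adjusted p under 0.05 were found in 2 comparisons, 2 in female ISch against IS and 3 in female FIDch against FID. Blood markers had no call. Thalamus markers summed to 58.5 to 86.1 CPM over all libraries, striatum markers to 71.3 to 97.5 and blood markers to 19.2 to 82.0. Oligodendrocyte markers summed to 5550 to 8230 CPM, endothelial markers to 134 to 179 and microglia markers to 151 to 215.

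In females, Kcnf1, a silent Kv subunit, was lowest in ISch replicate 2 (9.41 CPM), ISch replicate 3 (10.8), IS replicate 1 (12.5) and FIDch replicate 4 (14.3). The leak channel gene Kcnk9 was lowest in the same 4 libraries, at 7.50, 8.85 and 9.26 CPM in ISch replicate 2, ISch replicate 3 and FIDch replicate 4, with IS replicate 1 next, and the SK gene Kcnn3 too, at 5.17, 5.62, 5.71 and 5.37 CPM. These 3 were the only ones of 74 tested members with that set of lowest libraries, which come from 3 diet groups. They were singled out after their values were seen, and the shared order was not tested.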
